A study of Mus musculus with 40 samples.

Results

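The 9 genes described here encode the DNA topoisomerases Top1, Top2a, Top2b, Top3a and Top3b, the end-processing enzymes Tdp1 and Tdp2, and the drug efflux pumps Abcb1a and Abcb1b. They were taken by symbol from the 24062 genes of the count table, and all 9 were present. RNA was sequenced from primary mouse embryonic fibroblasts (MEFs) that were wild type (WT), heterozygous (Het) or knockout (KO) for Sall2, a zinc finger transcription factor gene, with or without the anthracycline doxorubicin. The comparisons ask how the level of each gene changed with the drug and whether it differed with the Sall2 genotype.

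Every culture came from an embryo of 13.5 days post coitum on the Mixed C57BL/6J-129P2OlaHsd background and was used at passage 3. The treated arm received 1 µM doxorubicin for 16 h, and the control arm received none. WT and Het were each represented by 1 embryo, with 1 control and 1 doxorubicin library. KO control had 3 libraries, from embryos 1, 2 and 3. The doxorubicin library labelled KO embryo 3 held the same count as that of embryo 2 at all 24062 genes, so the 2 were counted as 1 library, which left 5 control and 4 doxorubicin libraries. Sall2 was targeted in 129P2-derived stem cells, and KO cells keep a flanking segment of chromosome 14 from that strain. Total counts ran from 18236276 to 24122414 in the control libraries and from 15560728 to 21601522 in the doxorubicin libraries.

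Topoisomerases relieve the twisting of DNA by cutting strands and sealing them again while covalently attached to the cut end. Type I enzymes cut a single strand and type II enzymes cut both, and doxorubicin is known to trap the type II enzymes on the cut DNA. Tdp1 and Tdp2 remove trapped topoisomerase from DNA ends, and P-glycoprotein, which mice make from Abcb1a and Abcb1b, exports doxorubicin across the plasma membrane.

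Levels are given as CPM, each gene's count scaled to a fixed library total after TMM scaling of the totals. Sall2 itself, the targeted gene, was at 37.0 CPM in the WT control library, 24.3 CPM in Het and 19.5, 23.8 and 19.1 CPM in KO embryos 1, 2 and 3. With doxorubicin it was at 9.35 CPM in WT, 8.34 CPM in Het, and 4.24 and 3.72 CPM in KO embryos 1 and 2. KO libraries were thus below the WT library in both arms but still held Sall2 reads, and the counts cover the whole gene, so the targeted part was not examined.

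The control libraries of Het and of KO embryo 3, and the doxorubicin library of Het, stood apart from the others. Their TMM factors were 1.24, 1.22 and 1.27, and those of the other 6 libraries were between 0.839 and 1.01. The pre-ribosomal transcript Rn45s was at 5840, 6340 and 20300 CPM in them, but was highest in KO control 2, at 37700 CPM. It was between 461 and 1670 CPM in the remaining libraries. The 20 interferon-stimulated genes summed to 3080 CPM in Het control and 3420 CPM in KO control 3, against 143, 168 and 150 CPM in the control libraries of WT, KO 1 and KO 2. With doxorubicin the same sum was 1930 CPM in Het and 518, 588 and 629 CPM in WT, KO 1 and KO 2. Het and KO control 3 were thus high before treatment, and Het was also the highest treated library.

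Of 10 fibroblast markers, 9 were lower in these 3 libraries than in every other library of the same arm, and Dcn was not, with 39.4 CPM in KO control 2 and 68.2 CPM in KO control 3. The 10 markers summed to 11600 CPM in Het control, 10300 CPM in KO control 3 and 13300 CPM in Het doxorubicin, and to between 31900 and 50400 CPM in the other 6 libraries, with Col1a1 the most abundant marker in all 9. Pdgfrb fell with doxorubicin by 2.80 on the log2 scale (SE 0.34, FDR 0.00023), from 218 CPM in both Het control and KO control 3 and between 529 and 594 CPM in the other controls to between 41.0 and 77.3 CPM. No other fibroblast marker of the 10 was called. Thy1, Fbln1 and Dcn were higher with the drug in every embryo with both libraries, and Col3a1 and Vim were lower. In WT, Thy1 went from 514 to 798 CPM. The 9 macrophage markers summed to 664, 467 and 787 CPM in the same 3 libraries and to between 79.9 and 212 CPM elsewhere, led by Lyz2, and none was at 0 in any library. Only 6 of the 9 were higher in these 3 libraries than in every other library of their arm. Mrc1 was lower, at 0.29, 0.27 and 0.559 CPM, against 4.19 to 8.90 CPM in the other controls and 0.837 to 1.89 CPM in the other treated libraries. C1qa, at 5.95 CPM, was lowest of the controls in KO control 3, and Csf1r there, at 22.8 CPM, was below WT control, at 28.1 CPM. Erythroid markers stayed below 1 CPM in sum everywhere. Endothelial markers, led by Flt1, had their lowest sums in the same 3 libraries, 51.0, 51.5 and 103 CPM, against 119 to 198 CPM in the other 6, and so had epithelial markers, at 7.04, 7.25 and 7.43 CPM against 9.41 to 18.5 CPM. Skeletal muscle markers summed to between 101 and 219 CPM and neural and glial markers, led by Tubb3, to between 65.1 and 112 CPM, with these libraries not all at 1 end. Single markers within these sums differed. With doxorubicin the endothelial markers Emcn, Cldn5 and Esam, the epithelial Epcam and Krt5, the neural Sox2 and Elavl3 and the macrophage Cd68 were called higher, and Krt18, Sox10 and Csf1r lower. Epcam was at most 0.352 CPM in control and between 3.05 and 3.63 CPM with doxorubicin, Elavl3 at most 0.373 CPM and then between 1.56 and 12.4 CPM, and Pecam1, which was not called (FDR 0.0145), at most 2.11 CPM and then between 3.35 and 13.7 CPM. In all 3 libraries that stood apart, 3 of 6 neural and glial, 2 of 6 muscle and 2 of 8 endothelial markers were above every other library of the arm, while 2 endothelial, 2 epithelial and 1 neural marker were below. Those below were Flt1, Kdr, Epcam, Krt18 and Tubb3, with Flt1 at 32.4, 33.0 and 55.9 CPM, against 95.6 to 155 CPM in the other controls and 87.5 to 140 CPM in the other treated libraries. Myog, of muscle, was at 7.66 CPM in Het control and 3.56 CPM in KO control 3, against 0.101 to 0.44 CPM in the other controls. In these bulk cultures, fewer cells of a type and less RNA per cell cannot be told apart. The part of these differences in the changes described below was not tested, so each change in the 9 genes is given with all libraries and without those 3.

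A gene was called changed at a false discovery rate (FDR, the Benjamini-Hochberg adjusted p over all genes tested) under 0.01. With doxorubicin 7 of the 9 genes were called: Top3a, Tdp2 and Abcb1b rose, and Top2a, Top2b, Top3b and Tdp1 fell. Across the 14883 genes tested 42.1% were called, 21.9% higher and 20.2% lower. The median log2 change was -0.48 over the 9 genes and -0.02 over all genes tested. Control and doxorubicin libraries did not overlap for 7 of the 9 genes, against 47.4% of all genes tested. Without the Het libraries and KO control 3, all 9 were called, where 67.8% of 14629 genes were called. Those 3 libraries were picked from their values in these data. The controls among them were the lowest for Top1, Top2a and Top2b, so leaving them out narrows the spread of these genes. With the KO libraries alone, 3 against 2, none of the 9 was called, where 12.8% of genes were called, and the direction of each was as with all libraries. Leaving out 1 library mattered too: 3 of the 9 were called without the WT doxorubicin library, where 27.4% of all genes were called, and 4 without the WT control, the KO 1 doxorubicin or the KO 2 doxorubicin library, where 28.6%, 28.4% and 26.9% were.

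**Figure D1:**
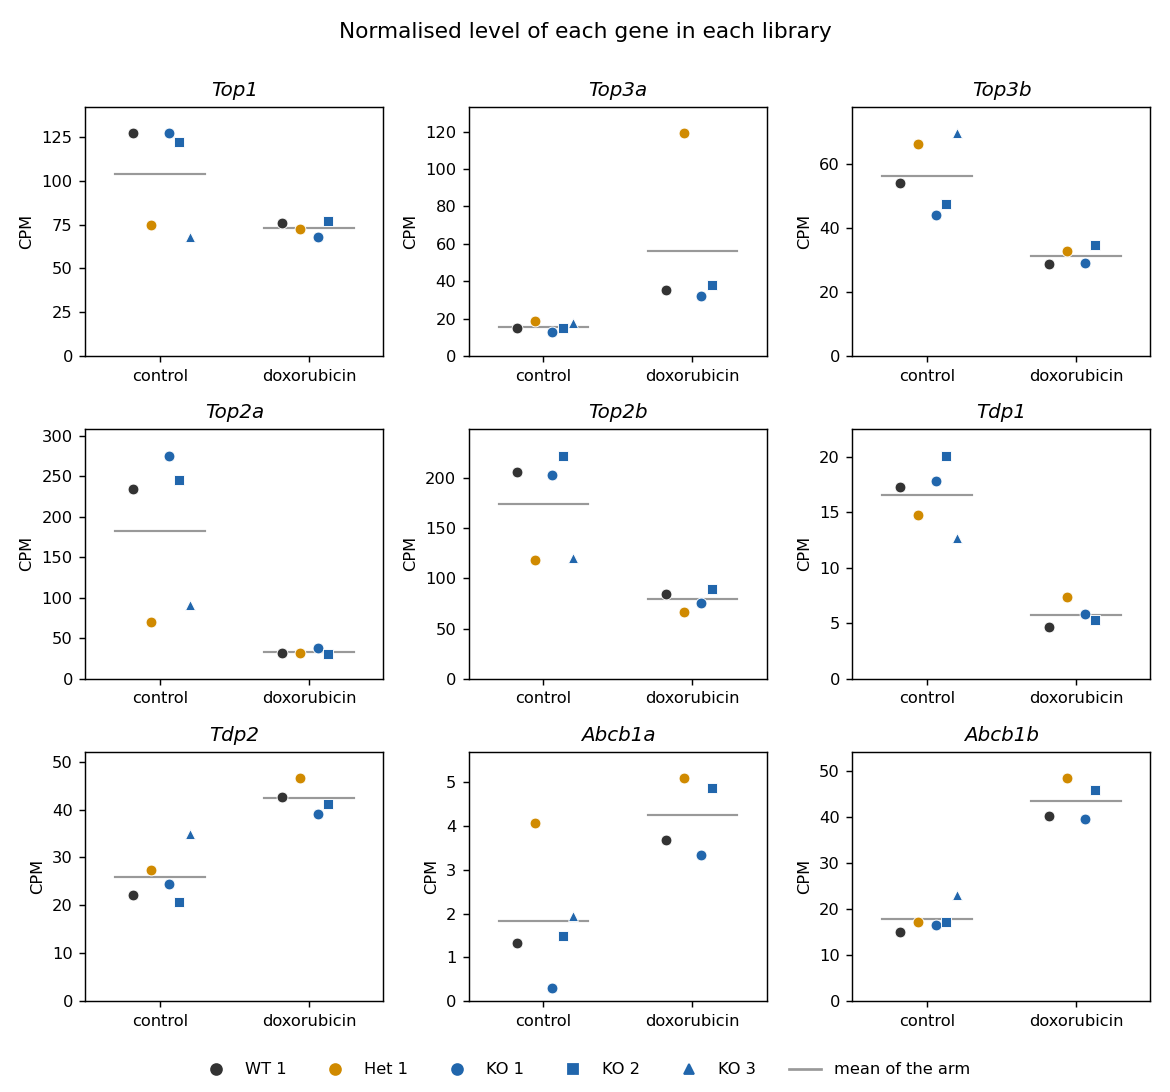
Level of each of the 9 genes in CPM (vertical axis, starting at 0) in the 5 control and 4 doxorubicin libraries, with each library a point coloured by genotype and shaped by embryo, and the mean of each arm a grey line. Top2a, Top2b, Top3b and Tdp1 lie lower with doxorubicin in every library, while Top3a in Het, at 119 CPM, stands far above the other treated libraries.

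Among the type I enzymes, Top1, which relaxes supercoils ahead of polymerases, lies at chr2:160645888-160722764 (GRCm38, GENCODE). It was at 127 CPM in WT control, 75.0 CPM in Het, and 127, 122 and 68.1 CPM in KO 1, 2 and 3. After treatment it stood at 76.2 CPM in WT, 72.3 CPM in Het, and 67.7 and 76.9 CPM in KO 1 and 2. The arms overlapped, with Het and KO control 3 as low as the treated libraries. The log2 change was -0.48 (SE 0.22, n = 5 and 4) and was not called (FDR 0.0910), though Top1 was lower with the drug in all 4 embryos. With the embryo as a block it was called, with a log2 change of -0.59 (SE 0.15, FDR 0.00775), where 59.4% of all genes were called. Without the Het libraries and KO control 3 it was -0.77 (SE 0.10, FDR 4.34e-05), and without KO control 3 alone it was -0.59 (FDR 0.00391).

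Top3a, which works with the Blm helicase to unlink recombination intermediates and also acts in mitochondria, lies at chr11:60740058-60777365. Control libraries held 15.0 CPM in WT, 18.8 CPM in Het and 12.9, 14.9 and 17.5 CPM in KO 1, 2 and 3. Doxorubicin libraries held 35.3 CPM in WT, 119 CPM in Het, and 32.4 and 38.2 CPM in KO 1 and 2. Every treated library was above every control library, and Het was above the other treated libraries by a wide margin. Top3a rose by 1.55 on the log2 scale (SE 0.26, FDR 0.00112), and without the Het libraries and KO control 3 by 1.30 (SE 0.12, FDR 5.65e-06). The log2 ratio within an embryo was 1.23 (WT), 2.66 (Het), 1.32 (KO 1) and 1.35 (KO 2).

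Its paralogue Top3b, which can also act on RNA together with Tdrd3, lies at chr16:16870736-16892990 and moved the other way. It was at 53.8 CPM in WT control, 66.1 CPM in Het, and 43.9, 47.4 and 69.4 CPM in KO 1, 2 and 3. In treated cultures it was at 28.8 CPM in WT, 32.8 CPM in Het, and 29.1 and 34.7 CPM in KO 1 and 2. The arms did not overlap, and the control libraries of Het and KO 3 were the highest. Top3b fell by 0.84 on the log2 scale (SE 0.17, FDR 0.00330), and without the Het libraries and KO control 3 by 0.65 (SE 0.12, FDR 0.000660). Its call was lost without the WT control (FDR 0.0178), Het control (0.0168), WT doxorubicin (0.0175), Het doxorubicin (0.0159) or KO 1 doxorubicin library (0.0162). The call was also lost with total counts without TMM. Per kilobase of exon, Top3a made up between 15.8% and 19.0% of the Top3a and Top3b total in control libraries and between 45.0% and 73.0% with doxorubicin. Top3b overlaps Vpreb1 over 108 bases on the opposite strand, and whether the counting used strand is not given in the sources used here.

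Of the type II enzymes, Top2a is made in dividing cells and separates sister chromatids, and lies at chr11:98992943-99024189. Top2a was at 234 CPM in WT control, 69.4 CPM in Het, and 275, 245 and 90.9 CPM in KO 1, 2 and 3. With doxorubicin it was at 31.3 CPM in WT, 31.5 CPM in Het, and 37.9 and 31.0 CPM in KO 1 and 2. Treated libraries lay in a narrow band below every control library, while the controls spread widely, with Het and KO 3 lowest. Top2a fell by 2.33 on the log2 scale (SE 0.41, FDR 0.00153), a 5.02-fold change. Without the Het libraries and KO control 3 it fell by 2.92 (SE 0.11, FDR 2.73e-08), a 7.57-fold change. Within embryos the log2 ratio was -2.90 (WT), -1.14 (Het), -2.86 (KO 1) and -2.98 (KO 2). The call was lost without the WT doxorubicin library (FDR 0.0101) and without that of KO 2 (FDR 0.0110).

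Top2b, which is made in dividing and resting cells alike, lies at chr14:16365179-16435462, on the chromosome that carries Sall2. It was at 206 CPM in WT control, 118 CPM in Het, and 203, 222 and 120 CPM in KO 1, 2 and 3. Treated libraries gave 84.6 CPM in WT, 66.8 CPM in Het, and 75.2 and 89.7 CPM in KO 1 and 2. Again every treated library was below every control library, with Het and KO 3 the lowest controls. Top2b fell by 1.10 on the log2 scale (SE 0.21, FDR 0.00232), and without the Het libraries and KO control 3 by 1.34 (SE 0.11, FDR 2.13e-06). The call was lost when the WT control, the WT doxorubicin or either KO doxorubicin library was left out, with FDRs of 0.0138, 0.0161, 0.0151 and 0.0112. Its 3′ end overlaps Rarb on the opposite strand over 4624 bases, and Rarb was between 5.58 and 15.0 CPM in all 9 libraries. As for Top3b, whether the counting used strand is not given. The part of this overlap in the Top2b counts is thus not known, and the Rarb level does not show it.

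Levels of Top2a and Top2b were also compared per kilobase of exon. Top2a held between 53.8% and 72.8% of their sum in control libraries and between 40.6% and 49.9% with doxorubicin. The sum was 64.7 RPKM (CPM per kilobase of exon) in WT control and 14.2 RPKM in WT with doxorubicin, 72.3 and 14.5 RPKM in KO 1, and 68.4 and 14.6 RPKM in KO 2. The difference was smaller in Het, from 24.7 to 12.5 RPKM, and KO control 3 was at 29.0 RPKM, so the sum differed between embryos mainly in control. Per length, Top2a was above Top2b in every control library and below it in the treated libraries, where KO 1 was nearly even. This order and the shares rest on the exon lengths used, 5.22 kb for Top2a and 10.3 kb for Top2b. In CPM, Top2b was above Top2a in Het control (118 against 69.4) and KO control 3 (120 against 90.9). It was below Top2a in the other controls.

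Top2a was set beside 27 other genes of S, G2 and M phase, and none of them had a lower log2 change. Of the 27, Aurka, Nusap1 and Cenpa rose, Mcm2 and Tyms fell, and 22 were not called, with a median log2 change of -0.09. With the embryo as a block 5 were called higher and 9 lower, with a median of -0.14, and again none was below Top2a. The share called, 18.5%, was below the 42.1% of all genes, and with the block 51.9% was below 59.4%. Aurka, a mitotic kinase, rose by 1.85 (SE 0.33, FDR 0.00146) and Mcm2, a subunit of the replicative helicase, fell by 1.68 (SE 0.38, FDR 0.00547). The proliferation marker Mki67 was at 144 ± 75.5 CPM in control and 75.9 ± 20.3 CPM with doxorubicin (SD, n = 5 and 4) and was not called, and Rrm2, of ribonucleotide reductase, was at 141 ± 78.9 and 305 ± 126 CPM and was not called. Both were called with the block, Mki67 at -0.97 (SE 0.19, FDR 0.00211) and Rrm2 at 1.01 (SE 0.11, FDR 9.71e-05). The sum of the 27 genes went from 2110 CPM in control to 2070 CPM with doxorubicin in WT, from 2890 to 2440 CPM in KO 1 and from 2180 to 2110 CPM in KO 2, but in Het from 731 up to 999 CPM. In KO control 3 it was 975 CPM, and in Het control and KO control 3 Top2a was low as well.

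The genes whose log2 CPM was most like that of Top2a over the 9 libraries, among 13828 genes averaging at least 1 CPM, were Dhx15, Urb2 and Ankle2, each with a Pearson r of 0.996. For Top2b they were Adnp and Ube3a (r = 0.995 for both) and C230091D08Rik (r = 0.994). For Abcb1b they were Gdf5, Duox1 (r = 0.993 for both) and S100a3 (r = 0.992), and for Abcb1a Coq10a (r = 0.968), C330013E15Rik (r = 0.962) and Cdkn2a (r = 0.961). These points share the difference between the arms and the libraries that stood apart, so high values were common.

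The promoters of Top2a, Top2b and Abcb1b are shown because these genes changed and carry the targets and the pump of the drug. Of the 9 genes, 7 had a RefSeq promoter (GRCm38.p6, 250 bases before to 50 after the start), and Top3a and Tdp2 had none. Each was searched on both strands for the CCAAT box, the element TTTGAA, the GC box GGGCGG and the p53 decamer. Capitals mark CCAAT and TTTGAA on either strand. Top2a lies at chr11:99024140-99024439 on the minus strand, Top2b at chr14:16364956-16365255 and Abcb1b at chr5:8797897-8798196, both on the plus strand.
Top2a: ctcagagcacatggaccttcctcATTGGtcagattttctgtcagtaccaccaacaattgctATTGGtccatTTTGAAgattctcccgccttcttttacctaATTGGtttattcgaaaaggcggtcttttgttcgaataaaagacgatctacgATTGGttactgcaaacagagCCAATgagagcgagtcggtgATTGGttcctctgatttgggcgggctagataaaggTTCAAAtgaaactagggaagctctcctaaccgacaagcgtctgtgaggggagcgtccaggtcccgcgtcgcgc
Top2b: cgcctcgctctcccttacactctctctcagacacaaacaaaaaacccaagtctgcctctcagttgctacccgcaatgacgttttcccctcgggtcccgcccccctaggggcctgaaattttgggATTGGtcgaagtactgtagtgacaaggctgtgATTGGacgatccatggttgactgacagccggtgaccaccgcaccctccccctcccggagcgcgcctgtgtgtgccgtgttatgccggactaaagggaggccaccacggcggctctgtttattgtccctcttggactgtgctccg
Abcb1b: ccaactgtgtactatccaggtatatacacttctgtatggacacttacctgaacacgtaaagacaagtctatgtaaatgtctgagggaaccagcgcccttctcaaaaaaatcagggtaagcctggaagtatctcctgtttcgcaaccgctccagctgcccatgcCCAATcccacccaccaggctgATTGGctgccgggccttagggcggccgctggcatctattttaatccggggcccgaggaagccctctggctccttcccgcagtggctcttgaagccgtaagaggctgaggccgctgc

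Top2a held 6 CCAAT and 2 TTTGAA matches, Top2b held 2 CCAAT matches, and Abcb1b held 2 CCAAT matches and 1 p53 decamer. Each of the 3 promoters held 1 GGGCGG match. CCAAT was found in 37.4% of 32851 promoters of this length, and 3 or more matches in 3.37%. TTTGAA was found in 17.9%, GGGCGG in 35.7% and the p53 decamer in 8.36%. A match is a description of the letters and not a bound site.

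Tdp1, which removes Top1 from the 3′ end of DNA, lies at chr12:99884517-99955219. Tdp1 was at 17.3 CPM in WT control, 14.8 CPM in Het, and 17.8, 20.1 and 12.7 CPM in KO 1, 2 and 3. After the drug it was at 4.62 CPM in WT, 7.37 CPM in Het, and 5.80 and 5.28 CPM in KO 1 and 2. The arms were well separated in every genotype. Tdp1 fell by 1.54 on the log2 scale (SE 0.22, FDR 0.000561), and without the Het libraries and KO control 3 by 1.82 (SE 0.14, FDR 1.43e-06).

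Tdp2, which removes type II enzymes from the 5′ end, lies at chr13:24831679-24842153 and moved the other way. It was at 22.1 CPM in WT control, 27.3 CPM in Het, and 24.4, 20.6 and 34.8 CPM in KO 1, 2 and 3. With doxorubicin it was at 42.6 CPM in WT, 46.5 CPM in Het, and 39.0 and 41.2 CPM in KO 1 and 2. The arms did not overlap, and KO control 3 came nearest to the treated libraries. Tdp2 rose by 0.71 on the log2 scale (SE 0.18, FDR 0.00919), close to the threshold, and without the Het libraries and KO control 3 by 0.87 (SE 0.11, FDR 4.77e-05). Its call was lost when any single library other than KO control 3 was left out, with FDRs between 0.0208 and 0.0456. The call was also lost with total counts without TMM and when every gene with a count was tested. The log2 ratio of Tdp2 was above 0 in all 4 embryos.

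Beyond Tdp1 and Tdp2, 18 other genes for repair of topoisomerase-linked DNA ends were tested: 1 rose, 5 fell and 12 were not called, with a median log2 change of -0.35. The gene that rose was Xrcc1, a scaffold of single-strand break repair, by 0.58 (SE 0.14, FDR 0.00645). Prkdc, the catalytic subunit of the end-joining kinase DNA-PK, fell by 1.61 (SE 0.34, FDR 0.00348), and Nbn, of the Mre11 complex, by 1.32 (SE 0.19, FDR 0.000542). The phosphatase gene Eya1 fell by 1.46 (SE 0.36, FDR 0.00883), and Lig3, which seals nicks, by 0.84 (SE 0.15, FDR 0.00178). Xrcc5, which encodes the Ku80 subunit, fell by 0.78 (SE 0.20, FDR 0.00945). These 5 genes were lower with the drug in all 4 embryos. Parp1 was at 67.1 ± 19.7 CPM in control and 62.4 ± 24.6 CPM with doxorubicin (SD, n = 5 and 4), and Rad50 at 36.7 ± 10.3 and 48.6 ± 12.3 CPM, and neither was called with or without the embryo block. With the block 1 of the 18 was called higher and 7 lower. The share called was 33.3% without the block and 44.4% with it, against 42.1% and 59.4% of all genes. Of the partners of topoisomerases, none of the 6 other genes tested was called without the block; Tdrd3 was at 22.8 ± 2.29 CPM in control and 16.2 ± 1.16 CPM with doxorubicin, and Topbp1 at 109 ± 24.1 and 86.8 ± 27.2 CPM. With the block 2 of the 6 were called, Tdrd3 at -0.53 (SE 0.12, FDR 0.00487) and Topbp1 at -0.40 (SE 0.10, FDR 0.00808), a share of 33.3% against 59.4% of all genes.

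Abcb1a and Abcb1b are adjacent paralogues on chromosome 5, at chr5:8660077-8748575 and chr5:8798147-8866315. Their coding sequences were 88.2% identical over 3816 aligned bases, and 214 of the 4848 stretches of 150 bases (4.41%) in the Abcb1a transcript were found unchanged in that of Abcb1b, so some reads could not be assigned to either copy with certainty. Abcb1b was at 15.0 CPM in WT control, 17.1 CPM in Het, and 16.6, 17.1 and 23.0 CPM in KO 1, 2 and 3. Treated values stood at 40.1 CPM in WT, 48.3 CPM in Het, and 39.5 and 45.7 CPM in KO 1 and 2. The arms were far apart in every genotype, and KO control 3 was the highest control. Abcb1b rose by 1.30 on the log2 scale (SE 0.16, FDR 0.000231), a 2.47-fold change. Without the Het libraries and KO control 3 it rose by 1.36 (SE 0.11, FDR 2.24e-06). Within embryos the log2 ratios were 1.41 (WT), 1.49 (Het), 1.25 (KO 1) and 1.41 (KO 2), with the smallest spread of the 9 genes (SD 0.10).

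Abcb1a was the least abundant of the 9 genes. It had 27 counts in WT control (1.32 CPM), 98 in Het (4.06 CPM), and 6, 27 and 43 in KO 1, 2 and 3 (0.302, 1.49 and 1.94 CPM). The 95% exact Poisson interval of the KO 1 control value ran from 0.111 to 0.657 CPM and covers counting error only. With doxorubicin there were 74 counts in WT (3.68 CPM), 100 in Het (5.09 CPM), and 60 and 106 in KO 1 and 2 (3.35 and 4.86 CPM). The arms overlapped through the Het control library. The log2 change was 1.34 (SE 0.49) and was not called (FDR 0.0446), though the ratio was above 1 in all 4 embryos. Without the Het libraries and KO control 3, Abcb1a was called at 1.95 (SE 0.42, FDR 0.00188). Per kilobase of exon, Abcb1a made up between 1.55% and 17.0% of the Abcb1a and Abcb1b total in control libraries and between 6.80% and 8.4% with doxorubicin.

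**Figure D2:**
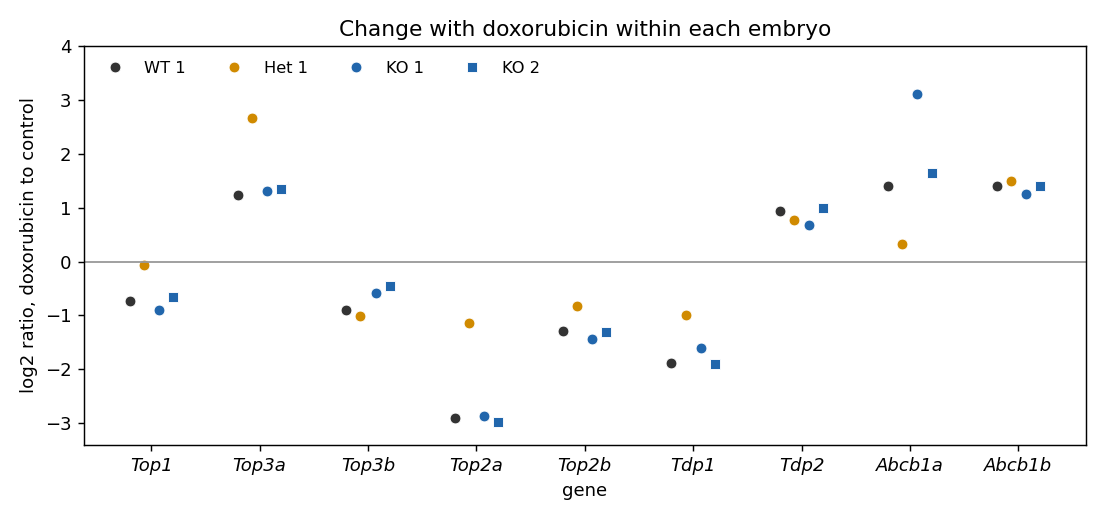
Log2 ratio of doxorubicin to control CPM (vertical axis, prior count of 2) within each of the 4 embryos with both libraries, for the 9 genes. Each point is an embryo; Top1, Top2a, Top2b, Top3b and Tdp1 lie below 0 in all 4 and Top3a, Tdp2, Abcb1a and Abcb1b above 0 in all 4, with Top1 in Het nearest to 0, at -0.05.

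The other efflux and uptake genes gave 4 that rose, none that fell and 10 that were not called, of 14 tested, with a median log2 change of 0.23. Slc22a5, a carnitine carrier, rose by 1.74 (SE 0.16, FDR 6.79e-05), and the mitochondrial transporters Abcb10 and Abcb8 rose by 1.67 (SE 0.23, FDR 0.000393) and 0.82 (SE 0.16, FDR 0.00286). Abcc2, an export pump, was also called; it averaged 0.0256 CPM in control, below the 3 counts taken as the floor, and 1.69 ± 1.25 CPM with doxorubicin (SD, n = 4). The abundant pumps Abcg2, at 158 ± 61.1 and 150 ± 55.4 CPM, and Abcc1, at 215 ± 73.8 and 155 ± 40.6 CPM, were not called. With the embryo block 5 of the 14 were called higher and 1 lower, which was Abcc1, at -0.57 (SE 0.11, FDR 0.00232). The share called, 28.6% without the block and 42.9% with it, was below the 42.1% and 59.4% of all genes, though 21.9% of all genes were called higher without it.

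Genes that reduce anthracyclines or handle the oxygen radicals these drugs can form gave 5 that rose, none that fell and 10 not called, of 15 tested, with a median of 0.37. Cbr3, a carbonyl reductase, rose by 1.59 (SE 0.24, FDR 0.000718), Akr1b8 by 1.00 (SE 0.12, FDR 0.000219), Sod1 by 0.95 (SE 0.13, FDR 0.000380), Gpx1 by 0.82 (SE 0.20, FDR 0.00737) and Sod2 by 0.59 (SE 0.12, FDR 0.00367). The abundant reductase gene Akr1a1 was at 552 ± 31.6 CPM in control and 747 ± 117 CPM with doxorubicin, and Por at 125 ± 53.8 and 73.8 ± 17.5 CPM, and neither was called. With the embryo block 8 of the 15 were called higher and 1 lower. These included Akr1a1, at 0.40 (SE 0.10, FDR 0.00869), and Por, at -0.89 (SE 0.14, FDR 0.000648). The share called was 33.3% without the block, below the 42.1% of all genes. All of these calls were higher, and 21.9% of all genes were called higher. With the block the share called was 60.0%, near the 59.4% of all genes.

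For reference, 3 of 20 p53 target genes rose, 1 fell and 16 were not called. Perp rose by 2.37 (SE 0.26, FDR 0.000145), Pmaip1 by 2.21 (SE 0.32, FDR 0.000509) and Sesn1 by 1.23 (SE 0.24, FDR 0.00246), while Phlda3 fell by 1.43 (SE 0.18, FDR 0.000272). Cdkn1a was at 480 ± 64.8 CPM in control and 310 ± 27.9 CPM with doxorubicin, and Ccng1 at 1080 ± 144 and 968 ± 114 CPM, and neither was called. With the embryo block 4 were called higher and 5 lower, among them Cdkn1a, at -0.70 (SE 0.11, FDR 0.000878), and the median was 0.04, against -0.17 without it. Of these genes 20.0% were called without the block and 45.0% with it, against 42.1% and 59.4% of all genes.

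For the 20 interferon-stimulated genes the direction of the median differed between the fits without and with the embryo block. KO control 3 has no treated partner, so the block also takes it out of the drug comparison. Pairing and the loss of that library were not tested apart. Without the block none was called and the median log2 change was -0.63, with Het control and KO control 3 both high among the 5 controls. Within embryos 18 of the 20 were higher with doxorubicin in at least 3 of 4, and with the block the median was 1.38, where that of all genes was 0.03. The block called 3 (15.0%, against 59.4% of all genes): Bst2 at 1.26 (SE 0.19, FDR 0.00052), Irf7 at 4.43 (SE 1.03, FDR 0.0056) and Ifit2 at -1.07 (SE 0.19, FDR 0.00139). Bst2 was at 219 ± 282 CPM in control and 213 ± 345 CPM with doxorubicin, and Isg15 at 189 ± 256 and 89.1 ± 82.1 CPM.

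The Sall2 genotype was compared within each arm. In control, KO (n = 3) and WT (n = 1) were compared for the 8 genes that passed the low-count filter, which Abcb1a did not. None of the 8 was called, and 0 of 12557 genes (0%) were called by edgeR, with 5 at an unadjusted p under 0.05, and 0 by DESeq2, with 41. Without KO control 1, edgeR called 12 genes. Log2 differences of KO from WT ran from -0.22 (SE 0.42) for Top1 to 0.40 (SE 0.42) for Abcb1b, each within 1 SE of 0. For Top2a the difference was -0.16 (SE 0.66) and for Top2b -0.14 (SE 0.44). KO control 3 held much of that spread: its log2 ratio to WT was -1.36 for Top2a, against 0.23 and 0.07 in KO 1 and 2, and -0.78 for Top2b, against -0.02 and 0.11.

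With doxorubicin, KO (n = 2) and WT (n = 1) were compared for all 9 genes. None was called, where 17 of 14315 genes (0.119%) were called by edgeR and 4 by DESeq2. The differences ran from -0.10 (SE 0.20) for Tdp2 to 0.25 (SE 0.34) for Tdp1, and that of Abcb1b was 0.08 (SE 0.20). Het libraries had no replicate. The Het ratio to WT was 1.75 on the log2 scale for Top3a with doxorubicin, -1.75 for Top2a in control and 0.01 for Top2a with doxorubicin.

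The response to doxorubicin was compared between KO and WT through the interaction of genotype and drug. None of the 9 genes was called, and 0 of 14771 genes (0%) were, with 34 at an unadjusted p under 0.05 by edgeR and 22 by DESeq2, which also called 0. The interaction was 0.34 (SE 0.89) for Top2a, 0.14 (SE 0.59) for Top2b and -0.25 (SE 0.44) for Abcb1b. With the embryo as a block the interaction was -0.02 (SE 0.20) for Top2a, -0.09 (SE 0.19) for Top2b and -0.08 (SE 0.23) for Abcb1b; none of the 9 was called, and 2 genes were called in all. WT had 1 library per arm in both fits. With the block, KO control 3 had no treated partner, so the spread came from KO 1 and KO 2 alone. The smaller SEs there do not show that the responses were alike. KO also differs from WT by the chromosome 14 segment from the targeted cells, and for Top2b, on that chromosome, the Sall2 genotype and linked strain differences cannot be told apart. By Xist and Y-linked counts, the WT embryo and KO 2 were female and KO 1 and KO 3 were male. Sex was thus not balanced between the genotypes, and its part was not tested.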

How the data were processed

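Libraries were depleted of ribosomal RNA, prepared with a stranded mRNA kit and sequenced as single reads of 150 bases, in 4 runs per library. The authors merged the runs, aligned reads to mm10 with HISAT2 (version 2.1.0 in the submitters' processing notes; the study's methods give another) and used HTSeq's union mode to assign reads to genes; the deposited values are raw counts. Here, counts were scaled by TMM over genes kept by filterByExpr on treatment and tested with edgeR 4.0.16 (quasi-likelihood, two-sided, R 4.3.3), as genotype plus treatment for doxorubicin, and within the WT and KO libraries for genotype and its interaction. An SE is the log2 change divided by the root of its F. P-values of the fits without a block measure the spread between libraries, mostly KO. Where both arms enter, these fits ignore that control and treated libraries came from the same embryo. With the embryo as a block, p-values measure the spread of the change between embryos. CPM ratios used a prior count of 2, and lengths came from GENCODE exons. The depth puts 3 counts between 0.124 and 0.167 CPM.

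The fits were tested on simulated data with known changes. Those data held a common spread and no differences between embryos, so they do not cover the libraries that stood apart. At the spread of these libraries the doxorubicin fits, blocked or not, recovered most of the larger changes, of 2 on the log2 scale. So did the fit of KO against WT with doxorubicin. That of KO against WT in control recovered few, and that of the interaction without the block none. A count of 0 in the last 2 thus does not show that genes did not differ. The fit of KO against WT with doxorubicin took its spread from 2 KO libraries alone. Genes not called there are thus not shown to be alike either. Alternatives were DESeq2 1.42.0, other filters and thresholds, RUVg, library sizes without Rn45s, libraries left out, other sample sets, and the embryo as a block. Numbers in the titles were taken as embryos: Xist held 5913 and 4327 counts in the WT pair, 33029 and 14039 in Het, 5997 and 4163 in KO 2, and 3 and 6 in KO 1, where Y-linked genes held 3806 and 1551. KO control 3 held 31 Xist and 6397 Y-linked counts, so these genes do not separate KO 1 from KO 3. KO 1 minus KO 2 correlated between arms (r = 0.385 over 14883 genes). The members and lists were chosen with earlier results of these data known. From each list the text names up to 4 called genes with the largest change and up to 2 abundant ones that were not called. Cenpa, Xrcc1, Xrcc5, Sod2, Irf7, Ifit2, Dcn, Pdgfrb, Thy1, Fbln1, Col3a1, Vim, Mrc1, C1qa, Csf1r, Cd68, Emcn, Cldn5, Esam, Pecam1, Kdr, Epcam, Krt5, Krt18, Sox2, Sox10, Elavl3 and Myog were named after their values were seen.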

Additional observations from a re-analysis of the deposited data

Results flagged for a closer look

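Each of the 9 genes was examined in the control arm and in the doxorubicin arm, 18 groups in all, for a library far from the others relative to the range of its arm. Of these, 3 had one. The groups share the same libraries, and how many would be flagged by chance was not tested. Top3a was at 119 CPM in the Het doxorubicin library, while the next highest treated library was at 38.2 CPM. In the same library the summed interferon-stimulated genes, at 1930 CPM, and the summed macrophage markers, at 787 CPM, were the highest of the treated arm, though Mrc1, at 0.559 CPM, was the lowest; their part in the Top3a value was not tested. Top2a was at 37.9 CPM in the KO 1 doxorubicin library, and the other 3 treated libraries were between 31.0 and 31.5 CPM. Abcb1b was at 23.0 CPM in KO control 3, and the other 4 controls were between 15.0 and 17.1 CPM.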

How the results depend on the processing

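For doxorubicin against control, all 9 genes kept their direction in the 20 alternatives. The genes called, 6266 in all and 7 of the 9, numbered 1911 and 0 with the KO libraries alone. They numbered 9493 and 7 with RUVg, and 9922 and 9 without the Het libraries and KO control 3, libraries picked from their values. They were 5535 and 5 with total counts without TMM, where Top3b and Tdp2 lost their calls. They were 6872 and 6 when every gene with a count was tested, where Tdp2 lost its call. With the embryo as a block (paired libraries) they were 8840 and 8, and with this block and without those libraries, an alternative chosen after seeing the data, 11064 and 9. Leaving out 1 library at a time gave 4102 to 8971 genes and 3 to 8 of the 9. Testing every gene with a count moved the median log2 change of all genes from -0.02 to 0.23. For KO against WT in control, RUVg with an exact test called 34 genes, and leaving out a KO library gave 0 to 12. With doxorubicin, where 17 were called, DESeq2 called 4, testing every gene 33, a filter of 5 counts in 2 libraries 4, total counts without TMM (also chosen after seeing the data) 8, and all libraries in 1 fit 0. For the interaction, the embryo block gave 2 genes and leaving out a library 0. Without TMM the median of all genes moved from 0.03 to 0.16 in control KO against WT and from 0.00 to -0.14 in the interaction. None of the 9 was called in these 3 comparisons under any alternative, and some differences near 0 changed sign. In control these were Top3b (-0.00494) and Tdp1 (-0.0317) with every gene tested, Tdp1 (-0.0134) with the 5-count filter, Top2a (0.00896), Top2b (0.0212) and Top3b (-0.00762) with RUVg, and Top3b (-0.00513) and Tdp1 (-0.0377) in 1 fit. With doxorubicin they were Top2b (0.00158) and Top3a (0.0392) without TMM, and Top3a (0.000325) in 1 fit. In the interaction they were Top3b (-0.051) without TMM, and Top1 (-0.0499), Top2a (-0.0201), Top2b (-0.0863) and Top3a (0.103) with the block. With 1 library left out, differences that changed sign ranged as follows: in control Top2a -0.435 to 0.173, Top2b -0.291 to 0.0663, Top3a -0.0835 to 0.188, Top3b -0.215 to 0.197 and Tdp1 -0.118 to 0.149; with doxorubicin Top1 -0.187 to 0.0128, Top2a -0.0163 to 0.257, Top2b -0.187 to 0.0847, Top3a -0.139 to 0.114, Top3b -5.93e-05 to 0.268, Abcb1a -0.149 to 0.394 and Abcb1b -0.0354 to 0.189; in the interaction Top1 -0.0768 to 0.337, Top2a -0.0501 to 0.611, Top2b -0.11 to 0.309, Top3a -0.197 to 0.0968, Top3b -0.0376 to 0.357 and Abcb1a -0.225 to 0.722. The cause of these shifts was not tested. Among the 9 genes the block changed no other call than that of Top1; in the gene lists it called more genes and turned the median of the interferon-stimulated genes from -0.63 to 1.38. Leaving out the WT library was not possible in the genotype comparisons, and with doxorubicin a left-out KO library left 1 against 1, with values and no test. At 3 counts the floor was 0.124 to 0.167 CPM, so of the 9 genes depth limited mainly Abcb1a.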
